A study of Mus musculus with 2 samples.

Results

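The mRNAs of 8 transcription factors that define hepatocyte identity, Hnf4a, Foxa1, Foxa2, Foxa3, Cebpa, Onecut1, Prox1 and Nr5a2, were followed in primary mouse hepatocytes. They were taken by name from the 20317 genes that could be given a symbol in the mRNA table, and all 8 were found, with 1 RefSeq transcript each except for Nr5a2, which had 2. The cells came from wild-type male C57BL/6J mice, which the methods give as 5 weeks old at the start, before the weeks of injection. The cells made up 1 library from mice given intraperitoneal oil and 1 library from mice given CCl4. CCl4 is a solvent that injures hepatocytes when it is metabolized, and repeated dosing scars the liver. It was given as a 20% solution in mineral oil at 2.5 ml CCl4 per kilogram, 2 times per week. The labels state 8 weeks of injection, whereas the methods state 4 weeks. Hepatocytes were purified by enzymatic perfusion and a density gradient, and how many mice stand behind a library is not given in the sources used here. With 1 library per condition, no difference below has a replicate check and no test between oil and CCl4 was possible.

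Hepatocyte identity is held by a network of transcription factors that bind together at liver enhancers and at each other's genes. Hnf4a is a nuclear receptor that controls lipoprotein, clotting and detoxification genes and keeps the epithelial state of the liver cell. The Foxa proteins are forkhead factors that open chromatin for the others, and Cebpa is a basic leucine zipper factor that drives gluconeogenesis and restrains proliferation. Onecut1, also known as HNF6, acts in hepatocytes and bile duct cells, Prox1 is a homeobox factor of hepatocytes and of lymphatic endothelium, and Nr5a2, also known as LRH-1, is a nuclear receptor of bile acid synthesis.

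The 3 most abundant of these genes in the oil library were Hnf4a, Cebpa and Foxa3, and the sequence before their start sites is shown because these 3 hold both the lowest log2 ratios and the highest one among the factors. RefSeq sequences for GRCm38.p6 were used, the assembly that corresponds to the build mm10 named in the submitters' processing notes. Of 13 start sites listed for the 8 genes, the one printed for Hnf4a is the downstream of its 2, which by position is the promoter that adult liver is known to use. Each line holds the 250 bases before the start, 5′ to 3′ on the strand of the gene. Capitals mark TATAAA, the TATA box, on the printed strand.
Hnf4a, chr2:163546905-163547154, plus strand: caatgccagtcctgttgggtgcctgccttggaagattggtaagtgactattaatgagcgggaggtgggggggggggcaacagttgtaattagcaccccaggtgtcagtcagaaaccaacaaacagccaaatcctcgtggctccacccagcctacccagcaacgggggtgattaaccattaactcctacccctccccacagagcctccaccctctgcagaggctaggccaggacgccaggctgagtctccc
Foxa3, chr7:19023540-19023789, minus strand: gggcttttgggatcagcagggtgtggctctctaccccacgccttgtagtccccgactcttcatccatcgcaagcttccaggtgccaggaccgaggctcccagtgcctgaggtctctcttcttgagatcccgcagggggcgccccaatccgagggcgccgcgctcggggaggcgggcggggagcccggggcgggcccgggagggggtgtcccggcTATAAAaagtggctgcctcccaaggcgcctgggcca
Cebpa, chr7:35119043-35119292, plus strand: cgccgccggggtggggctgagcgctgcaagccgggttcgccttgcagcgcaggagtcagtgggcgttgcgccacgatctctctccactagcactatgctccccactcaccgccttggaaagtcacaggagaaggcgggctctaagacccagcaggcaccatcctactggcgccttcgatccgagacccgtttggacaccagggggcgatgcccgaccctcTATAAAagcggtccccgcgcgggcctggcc

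The Foxa3 and Cebpa windows each held TATAAA, at 36 and 30 bases before the start, and the printed Hnf4a window did not hold these letters. On either strand, TATAAA was also found before Nr5a2, Prox1 and Foxa2. The motif was picked after the sequences had been seen. Among 32851 RefSeq promoter windows of the same length, 12.4% held TATAAA on either strand. Of the other motifs searched, the forkhead motif TGTTTAC was found in the Foxa1 window (3.17% of all windows) and the Onecut motif ATTGAT in a Foxa2 window and in the upstream Hnf4a window (6.72% of all windows). The motifs CAAAGTCCA for HNF4, TTGCGCAA for C/EBP and CAAGGTCA for NR5A had no match in the 13 windows. Matches on both strands were counted, and a match describes the letters only.

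All values of these mRNAs are RPKM, reads normalized to transcript length and to the size of the library, and every RPKM under 1 was listed as 0 by the authors. A log2 ratio is that of CCl4 to oil after 0.1 RPKM was added on either side. Across the 14854 mRNA transcripts with a value in both libraries the median log2 ratio was 0.32, so a typical mRNA was somewhat higher in the CCl4 library, and log2 ratios are also given after scaling to the median mRNA. One RPKM stood for 58.0 reads per kilobase with oil and 64.7 with CCl4. The 95% intervals given are exact Clopper-Pearson intervals for 1 kilobase of transcript and cover counting error only, not differences between mice.

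Hnf4a was at 148.9 RPKM with oil and 50.1 RPKM with CCl4, where 33.6% of the oil level was left. Its log2 ratio was -1.57, with a counting interval from -1.63 to -1.51, and -1.89 after scaling to the median mRNA. It went from rank 333 to rank 843 among the 20317 genes. Only 1.47% of the mRNA transcripts had a lower log2 ratio. The gene lies at chr2:163506811-163572907, and its listed transcript is NM_008261.

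Foxa3, the most abundant forkhead factor of the 3 in these cells, had the lowest log2 ratio of the 7 members that could be compared. It was at 47.7 RPKM with oil and 11.2 RPKM with CCl4, or 23.4% of the oil level. The log2 ratio was -2.08 (counting interval from -2.21 to -1.97) and -2.41 after scaling, and 0.532% of mRNA transcripts were lower still. Foxa3 lies at chr7:19013283-19023539 and is listed as NM_008260.

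Foxa2 was at 6.02 RPKM with oil and 3.87 RPKM with CCl4. Its log2 ratio of -0.62 (counting interval from -0.87 to -0.40) was smaller than that of Foxa3, and the counting intervals of the pair do not overlap. Foxa1 was at 1.57 RPKM in the oil library, or 91 reads per kilobase, and was listed at 0 in the CCl4 library, which means under 1 RPKM, so no fold change is given. Such a listing was shared by 1.51% of the mRNA transcripts with a value in the oil library, and by 7.02% of the 2238 transcripts that were, like Foxa1, between 1 and 2 RPKM there. The summed RPKM of the 3 Foxa genes was 55.3 in the oil and 15.0 in the CCl4 library with Foxa1 counted as 0. Foxa3 made up 86.3% of that sum with oil and 74.3% with CCl4, while the share of Foxa2 was 10.9% and 25.7%. Foxa1 lies at chr12:57540628-57548029 (NM_008259) and Foxa2 at chr2:148042877-148046969 (NM_010446).

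Cebpa did not share the lower level of the others. It was at 92.5 RPKM with oil and 98.1 RPKM with CCl4, a log2 ratio of 0.08 (counting interval from 0.031 to 0.14). The direction depends on the scaling, since the log2 ratio was -0.24 after scaling to the median mRNA. Cebpa was at 0.621 times the RPKM of Hnf4a in the oil library and at 1.96 times in the CCl4 library, so the order of the top pair was reversed. It lies at chr7:35119293-35121928 and is listed as NM_007678.

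Nr5a2 was listed with 2 transcripts whose values nearly coincide, and whether they share reads was not tested. NM_001159769 was at 8.79 RPKM with oil and 4.86 RPKM with CCl4, and NM_030676 was at 8.75 and 4.81 RPKM. The log2 ratio of the former was -0.84 (counting interval from -1.06 to -0.65) and -1.16 after scaling. Onecut1 (NM_008262) was at 5.31 RPKM with oil and 3.11 RPKM with CCl4, with a log2 ratio of -0.75 (counting interval from -1.04 to -0.51) and -1.07 after scaling. Prox1 (NM_008937) was at 7.33 and 5.24 RPKM, with a log2 ratio of -0.48 (counting interval from -0.69 to -0.27) and -0.80 after scaling. The log2 ratios of Nr5a2, Onecut1, Foxa2 and Prox1 thus lay between -0.84 and -0.48, all between those of Hnf4a and Cebpa. These genes lie at chr1:136842562-136960448 (Nr5a2), chr9:74861921-74889648 (Onecut1) and chr1:190118035-190170827 (Prox1).

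**Figure D1:**
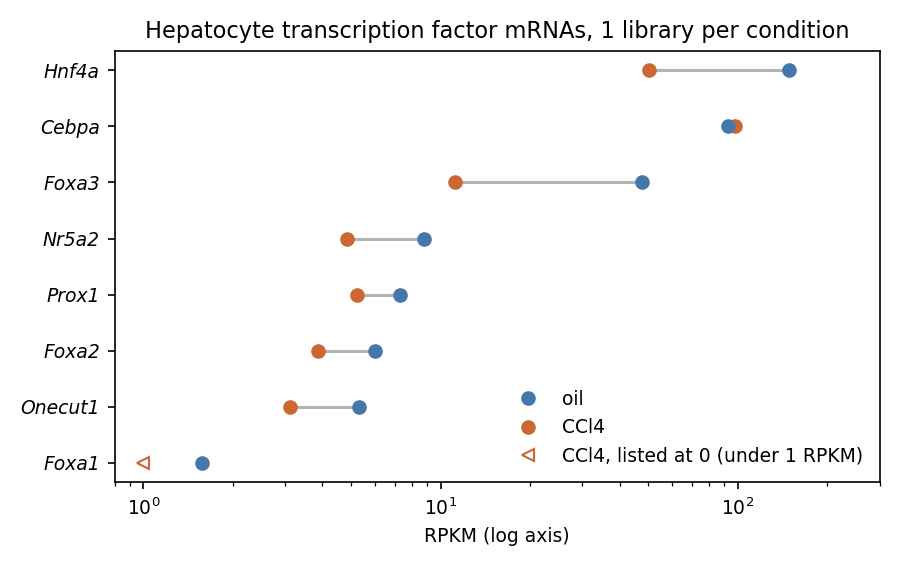
RPKM on a log axis of the 8 factors in the oil library (blue) and the CCl4 library (orange), 1 library per condition. Hnf4a and Foxa3 are far to the left in the CCl4 library, the pair of Cebpa values nearly coincide at 92.5 and 98.1 RPKM, and the open triangle marks Foxa1, listed at 0 in the CCl4 library and drawn at the limit of 1 RPKM.

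Of the 7 factors with a value in both libraries, 6 were lower in the CCl4 library, against 31.2% of all mRNA transcripts. A log2 ratio of -1 or below was met by 2 of the 7, Hnf4a and Foxa3, against 5.3% of all mRNA transcripts, and none reached 1, against 14.4%. After scaling to the median mRNA 4 of the 7 were at -1 or below, with Nr5a2 and Onecut1 in addition, against 9.74% of all, and again none reached 1, against 7.5%. The median log2 ratio of the 7 was -0.75, or -1.07 after scaling.

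**Figure D2:**
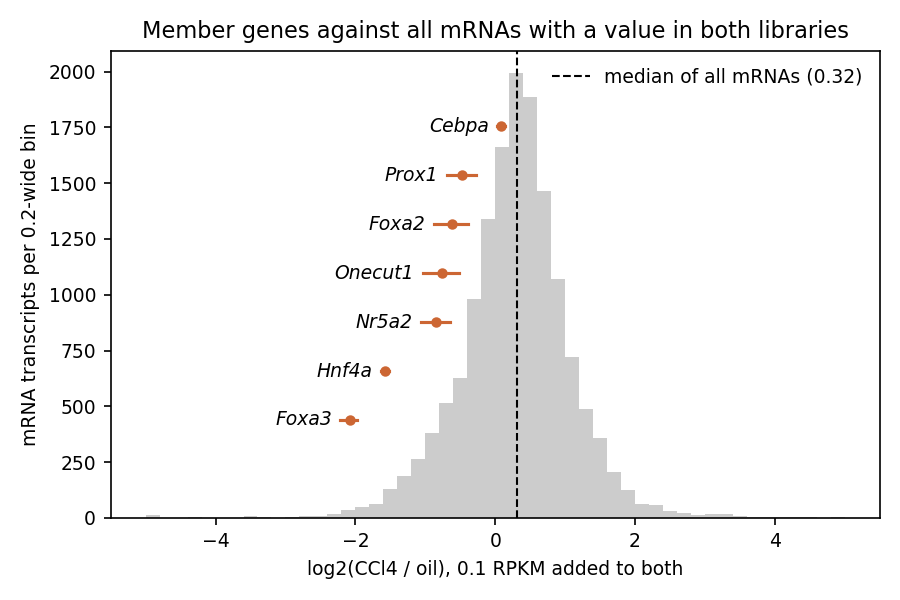
Log2 ratio of CCl4 over oil for the 7 factors with a value in both libraries (orange points, with 95% counting intervals for 1 kilobase as bars and heights chosen for legibility) over a histogram of 14854 mRNA transcripts in bins of 0.2, with ratios beyond 5 in either direction placed in the outermost bins. The dashed line is the median of all mRNAs at 0.32, and all 7 factors lie to its left, Foxa3 the farthest at -2.08.

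The labelled cell type was checked against marker genes in the same libraries. Of 10 hepatocyte markers 9 had a matching transcript (Tf was not analysed here), and all 9 were lower in the CCl4 library, with a median log2 ratio of -1.19 and a summed level of 22176 RPKM with oil and 12128 RPKM with CCl4. Albumin (Alb), the chief plasma protein, was at 8656 and 6476 RPKM, and Cyp2e1, the cytochrome P450 that activates CCl4, at 644.7 and 127.8 RPKM. Genes of other liver cells were higher. All 10 stellate cell and myofibroblast markers were above 1 RPKM in the CCl4 library, Pdgfrb was listed at 0 in the oil library, and their sum was 76.3 RPKM with oil and 934 RPKM with CCl4. The sums were 789.7 and 1499 RPKM for 7 Kupffer cell markers, of which Clec4f alone was lower, and 539.1 and 899.3 RPKM for 7 sinusoidal endothelial markers. In bulk RNA, fewer cells of a type and less RNA per cell cannot be told apart, and the part of cell composition in the factor levels was not tested.

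The factors were therefore also set against the hepatocyte markers, a scaling chosen after the values had been seen, in which the summed hepatocyte markers are made equal in both libraries. On that scale Foxa3 was still lower, with a log2 ratio of -1.22, and Hnf4a was lower with -0.70. Nr5a2 was at 0.015, Onecut1 at 0.096, Foxa2 at 0.23 and Prox1 at 0.38, so that these 4 values changed sign. No counting interval was computed on that scale, so the direction of the values nearest to 0, those of Nr5a2, Onecut1 and Foxa2, is not settled. Cebpa was at 0.95. The median of all mRNA transcripts was at 1.17 on that scale, and 6.95% of them were below 0. Set against the 9 markers one at a time, which was also done after the values had been seen, the direction of several factors depended on the marker. The ratio of Cebpa to the marker was higher after CCl4 for all 9, at 1.42 to 5.35 times its oil value. For Foxa3 it was lower against 7 markers and higher against Fgb and Cyp2e1, and the range was 0.313 to 1.18 times the oil value. For Hnf4a it was lower against 6 and higher against Fgb, Cyp2e1 and Tat, from 0.450 to 1.70 times.

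Some members are also expressed outside hepatocytes, so markers of those cells are given beside them. Onecut1 and the Foxa factors are also known in bile duct cells. Of 6 bile duct markers, Sox9 was listed at 0 in both libraries and Prom1 in the oil library, Krt19 was at 8.86 and 17.8 RPKM, and Spp1, which other cells also make, at 37.4 and 145.1 RPKM. The sum of the 6 was 50.9 RPKM with oil and 171.3 RPKM with CCl4. Prox1 also marks lymphatic endothelium, for which Ccl21a was listed at 0 in both libraries, Mmrn1 was listed at 0 in the oil library and at 1.18 RPKM in the CCl4 library, and the sum of 5 markers was 50.9 and 99.1 RPKM. Flt4 and Lyve1 in that list are also made by sinusoidal endothelium. Cebpa is also expressed by cells of the myeloid lineage, whose marker Csf1r was at 75.5 and 179.0 RPKM. The bile duct and lymphatic sums, made up mostly of Spp1 and of Flt4 and Lyve1, were higher in the CCl4 library, whereas Onecut1, Prox1 and Foxa2 were lower. The part of these cells in the levels of the factors was not tested.

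The wider network was described with 23 further regulators of hepatocytes. Of the 22 with a value in both libraries, 17 were lower after CCl4, 4 of them by a log2 ratio of at least 1, and 3 were higher by as much, with a median of -0.54. Among all mRNA transcripts 31.2% were below 0, 5.3% lower and 14.4% higher by these rules. The share of higher regulators was thus close to that of all mRNAs in the values as deposited. After scaling to the median mRNA 10 of the 22 were lower by the threshold, against 9.74% of all, and 3 were higher, against 7.5%. Set against the summed hepatocyte markers, 8 of the 22 were below 0, against 6.95% of all mRNA transcripts, and their median was 0.33, against 1.17. By the threshold 1 was lower on that scale, against 133 of 14854, and 4 were higher, against 9047. The small heterodimer partner Nr0b2, which represses Nr5a2 and Hnf4a, was at 30.4 and 7.18 RPKM with a log2 ratio of -2.07. The other lower regulators past the threshold were Mlxipl, the carbohydrate response factor (-1.51), Klf15 (-1.20) and Xbp1, the factor of the secretory pathway (-1.12, or -0.96 without the 10 most abundant mRNAs).

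Nuclear receptors that form the metabolic arm of the network differed among themselves. Ppara, the fatty acid receptor, was at 12.9 and 6.51 RPKM (-0.98), Nr1i3, the xenobiotic receptor CAR, at 18.9 and 9.59 RPKM (-0.97), and Nr1i2, the xenobiotic receptor PXR, at 20.5 and 10.6 RPKM (-0.94). The bile acid receptor Nr1h4 had a log2 ratio of -0.36, and Rxra, the shared partner of these receptors, was at 67.7 and 59.1 RPKM (-0.19). The liver X receptor Nr1h3 was level at 54.9 and 54.8 RPKM. The 3 regulators that were higher by a log2 ratio of at least 1 were Gata4 (5.62 and 17.2 RPKM, 1.60), Nr2f2 (2.51 and 7.74 RPKM, 1.59) and Gata6 (2.14 and 5.69 RPKM, 1.37), of which Gata4 and Nr2f2 are also known in endothelial and stellate cells of the liver. The log2 ratios of the sinusoidal endothelial markers lay between 0.67 and 0.92 and those of 9 stellate cell markers between 2.42 and 5.39, and the part of those cells was not tested.

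By the distance between log2 levels in both libraries, a description over 2 values with 22 candidates, the regulator most like Hnf4a was Xbp1, the one most like Foxa3 was Mlxipl, the one most like Cebpa was Rxra, the one most like Nr5a2 was Ppara and the one most like Prox1 was Hhex. These distances were between 0.70 and 0.86 log2 units.

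Relatives of the members from the same families did not follow one direction. Onecut2 was at 2.69 RPKM with oil and 1.20 RPKM with CCl4, a log2 ratio of -1.10 that did not reach the threshold with a pseudocount of 1 RPKM or without the 10 most abundant mRNAs, and Onecut3 was listed at 0 in both. Hnf4g, the paralog of Hnf4a, and Nr5a1, the paralog of Nr5a2, were also listed at 0 in both libraries, so no rise of these relatives above 1 RPKM was seen. Prox2 was listed at 0 in the oil library and at 1.03 RPKM in the CCl4 library. Among C/EBP factors, Cebpb was at 114.2 and 88.3 RPKM (-0.37) and Cebpd, an acute phase factor, at 22.9 and 25.6 RPKM (0.16). The ratio of Cebpa to Cebpb was 0.811 in the oil and 1.11 in the CCl4 library.

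Known targets of the factors were lower in the CCl4 library more often than not. Of 31 distinct target genes 29 had a value in both libraries, of which 26 were lower, against 31.2% of all mRNA transcripts. By a log2 ratio of at least 1, 17 were lower and 2 higher, and the median of the 29 was -1.10. For all mRNA transcripts the shares at the same threshold were 5.3% lower and 14.4% higher. Some targets appear in several lists, and several are also hepatocyte markers, so the lists are not independent of each other. Against the summed hepatocyte markers the medians of the 5 target lists were nearer to 0, from -0.64 for the Foxa factors to -0.040 for Hnf4a. That scaling raises every log2 ratio by up to 0.87, so the medians moved up by construction. The median of all mRNA transcripts was 1.17 on that scale.

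Among 14 targets of Hnf4a, 6 were lower and 2 higher by a log2 ratio of at least 1, against 5.3% and 14.4% of all mRNA transcripts. The counts were 9 and 1 after scaling to the median mRNA, where 9.74% of all were lower and 7.5% higher. Set against the summed hepatocyte markers they were 1 and 3, where 133 of all 14854 transcripts were lower and 9047 higher. Slco1a1, an organic anion uptake carrier, went from 47.7 RPKM in the oil library to 2.67 RPKM in the CCl4 library (-4.11). Cyp8b1, the sterol 12-hydroxylase of cholic acid synthesis, was at 71.1 and 21.1 RPKM (-1.75), and Apoa2, a high density lipoprotein component, was at 5298 and 1984 RPKM (-1.42). Otc, an enzyme of the urea cycle, was at 78.1 and 29.9 RPKM (-1.38). In the opposite direction, Cyp7a1, the rate-limiting enzyme of bile acid synthesis, was at 4.74 and 19.2 RPKM (1.996) and Apoa4 at 96.0 and 200.9 RPKM (1.06, or 0.74 after scaling to the median mRNA). Apob, the structural protein of very low density lipoprotein, was just below the threshold at 391.1 and 195.8 RPKM.

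Targets of the Foxa factors had the lowest median, -1.51 over 6 genes. Igfbp1, an insulin-regulated binding protein, was at 344.0 RPKM with oil and 42.8 RPKM with CCl4 (-3.00). Pck1, a gluconeogenic carboxykinase, was at 763.5 and 178.7 RPKM (-2.09), and Tat, which breaks down tyrosine, at 645.4 and 176.2 RPKM (-1.87). Transthyretin (Ttr), the thyroid hormone carrier a classic Foxa target, was at 2047 and 1250 RPKM (-0.71). The fetal protein gene Afp was listed at 0 in the oil library and at 4.21 RPKM in the CCl4 library.

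Cebpa itself was at a similar level in both libraries as deposited, and at a log2 ratio of 0.95 against the summed hepatocyte markers. Of its 8 listed targets 7 were lower by a log2 ratio of at least 1, against 5.3% of all mRNA transcripts. The count was 5 with a pseudocount of 1 RPKM, where 671 of all 14854 transcripts were lower. It was 4 without the 10 most abundant mRNAs in the library size, where 567 were lower. Set against the summed hepatocyte markers, of which Alb, Tat and Cps1 are themselves part, it was 2, where 133 were lower. Besides Pck1, Tat and Otc, the 7 included Cps1, which commits ammonia to the urea cycle (485.6 and 212.5 RPKM, -1.19), and G6pc, the glucose-releasing phosphatase (145.5 and 66.0 RPKM, -1.14). The others were Gys2, the liver glycogen synthase (18.5 and 9.06 RPKM, -1.02), and Ugt1a1, the bilirubin conjugating enzyme (134.1 and 66.6 RPKM, -1.01). Pck1, Tat, G6pc and Otc also stand in the target lists of other members.

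Of 7 targets of Nr5a2, 4 were lower and 1 was higher by a log2 ratio of at least 1, against 5.3% and 14.4% of all mRNA transcripts. Set against the summed hepatocyte markers 1 was lower and 1 higher, where 133 and 9047 of all 14854 transcripts were. The sterol exporters Abcg5 and Abcg8, which act as a pair, were at 9.62 and 3.85 RPKM (-1.30) and at 6.96 and 2.38 RPKM (-1.51). Scarb1, the high density lipoprotein receptor, was level at 42.0 and 41.9 RPKM. Of the 6 targets of Onecut1, 5 had a value in both libraries. By a log2 ratio of at least 1, 3 were lower and Cyp7a1 was higher, against the same 5.3% and 14.4%. The 3 became 2 with a pseudocount of 1 RPKM, where 671 of all 14854 transcripts were lower. They became 1 without the 10 most abundant mRNAs or against the summed hepatocyte markers, where 567 and 133 were lower. Pfkfb1, which sets hepatic glycolytic flux, was at 6.70 and 3.08 RPKM (-1.10).

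**Figure D3:**
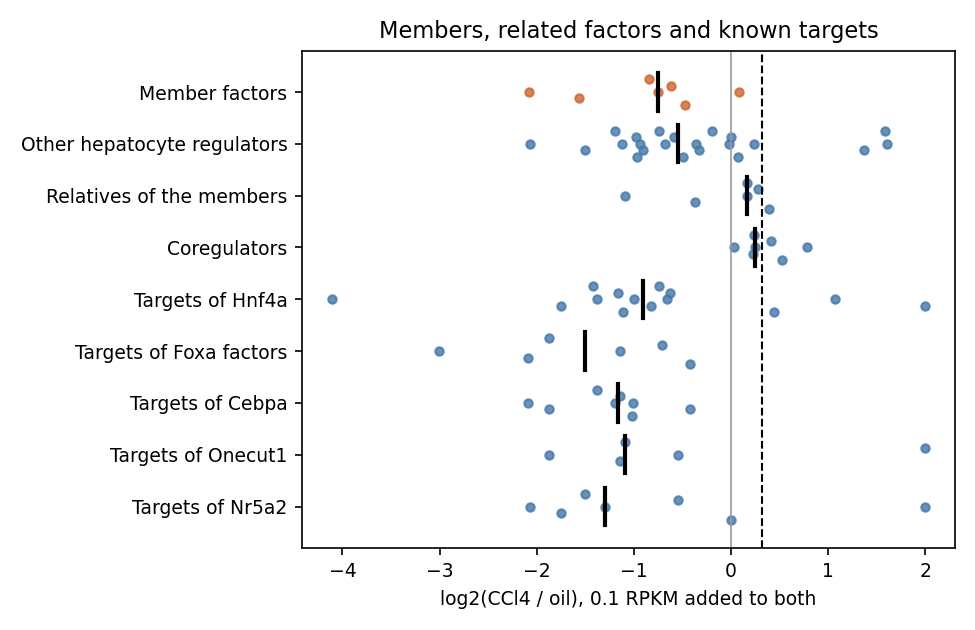
Log2 ratio of CCl4 over oil for each gene with a value in both libraries, by list, with the median of each list as a black bar, 0 as a grey line and the median of all mRNAs (0.32) as a dashed line. Member factors (median -0.75) and all 5 target lists lie mostly to the left of 0, while relatives of the members (0.16) and coregulators (0.24) have medians between 0 and the median mRNA.

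Noncoding transcripts within 100 kb of the members were then read, a window chosen after the values had been seen. The authors assembled 1443 lncRNAs absent from the annotation and deposited read counts for them, and 15 lie in these windows, 12 of them beside Foxa2. All 12 lie from 8.87 to 59.1 kb beyond its 3′ end and inside the span of the annotated lncRNA gene 9030622O22Rik at chr2:147944459-148040513. They may be pieces of a longer RNA and are therefore given as a sum. They had 24 to 77 reads with oil and 4 to 36 with CCl4. Summed, they had 458 reads in the oil and 186 in the CCl4 library, a log2 ratio of -1.48 per library size, with nothing added (exact Clopper-Pearson interval from -1.74 to -1.24). No share over all 1443 new lncRNAs is given beside this ratio or those that follow.

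**Figure D4:**
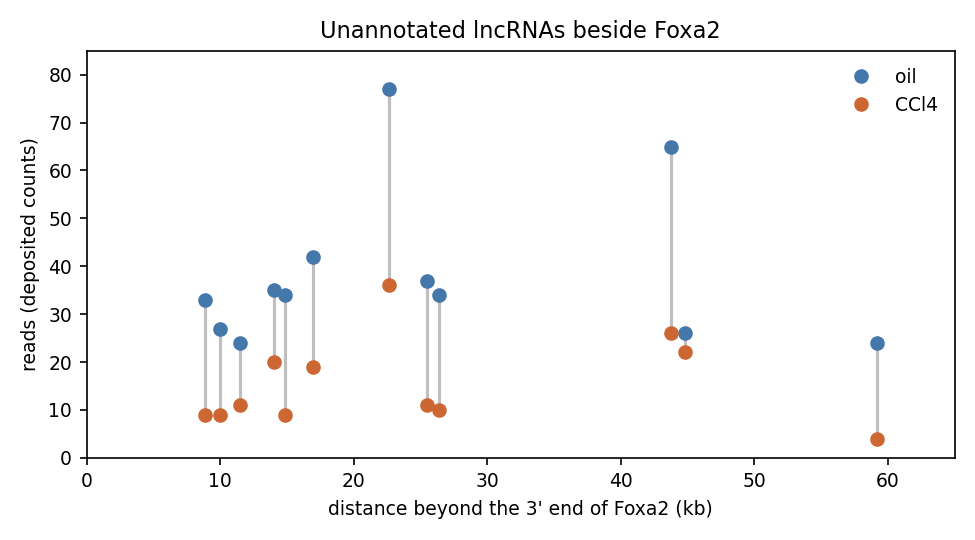
Deposited read counts of the 12 unannotated lncRNAs beside Foxa2 in the oil (blue) and CCl4 (orange) library, against their distance in kilobases beyond the 3′ end of Foxa2, with a grey line joining the values of each lncRNA. The oil counts lie between 24 and 77 reads and the CCl4 counts between 4 and 36, and the sums are 458 and 186 reads.

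Beside Hnf4a, the new lncRNA TCONS_00048349 lies 2.02 kb beyond the 3′ end of the gene at chr2:163574929-163575803, on the same strand. Whether it belongs to a longer Hnf4a transcript was not tested. It had 24 reads in the oil and 2 in the CCl4 library, a log2 ratio of -3.77 with an interval from -6.90 to -1.76. In the opposite direction, TCONS_00049358, 82.9 kb before the 5′ end, had 6 and 22 reads (1.69, interval from 0.34 to 3.28). Hnf4aos (NR_027970), the annotated opposite-strand lncRNA, overlaps 34911 bases of the Hnf4a span but not the downstream promoter printed above. It was at 3.72 RPKM with oil and 1.10 RPKM with CCl4, a log2 ratio of -1.67 beside -1.57 for Hnf4a. Whether reads were counted by strand is not given in the sources used here, so reads of overlapping parts cannot be told apart. Near Prox1, TCONS_00004677, 57.9 kb before its 5′ end, had 22 and 3 reads (-3.06, interval from -5.44 to -1.32). The other annotated noncoding RNAs in these windows did not share one direction. 2310001K24Rik and 0610039K10Rik, on either side of Hnf4a, had log2 ratios of -0.55 (4.13 and 2.80 RPKM) and 0.49 (4.08 and 5.79 RPKM). Mir3100, near Foxa3, was at 4.24 and 4.52 RPKM (0.089). Gm16551 (NR_045284), a lncRNA beside Onecut1, was at 4.52 RPKM in the oil library and listed at 0 in the CCl4 library.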

How the data were processed

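RNA-seq of primary hepatocytes was analysed from 1 oil and 1 CCl4 library, grouped by the treatment in the labels. The members and gene lists were chosen with earlier results of these data known. The submitters' processing notes name CASAVA 1.4, TopHat2 and mm10, and the counting program and annotation version are not given in the sources used here. RPKM values were deposited by the authors with values under 1 listed as 0. For the new lncRNAs, which were also deposited without that limit, all 1354 oil and 1347 CCl4 values under 1 were listed as 0. Read counts of new lncRNAs were deposited by the authors as whole numbers. The deposited tables also hold the authors' comparison of the libraries (log2 changes with a p-value and a q-value), which were not used.

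Symbols came from a RefSeq gene table of GRCm38.p6 (27049 of 27457 mRNA transcripts), and the transcript with the highest mean RPKM stood for a gene. A log2 ratio was computed with 0.1 RPKM added where both libraries had a value (for the new lncRNAs, from read counts per library size with nothing added), and calls were made at an absolute log2 ratio of at least 1. With 1 library per condition no test was run. The library totals that give whole reads (within 0.02 reads) for short RefSeq genes were 57992598 for oil (175 of 179 genes whole) and 64655643 for CCl4 (185 of 190 genes whole). The counts of the new lncRNAs imply other totals, 62438205 and 70960848, so the tables were not compared with each other in level. Named genes are all members and genes of the lists, of which a few, and motif matches, are not reported here. Alternatives were the pseudocount, the scaling, the fold threshold, the filter and the sum over transcripts. The calls were tried on simulated 3-fold changes with counting error only. That trial does not cover differences between mice or a shift of the median mRNA. Scripts used scipy 1.17.1 and pandas 2.3.3 under Python 3.11.15, and figures were drawn with matplotlib 3.10.9.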

Additional observations from a re-analysis of the deposited data

Results flagged for a closer look

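In the table of new lncRNAs, which the comparison of the factors did not use, 1 of the 15 transcripts near a member was higher in the CCl4 library. The share of all 1443 new lncRNAs that were higher than in the oil control is not given here. TCONS_00049358, 82.9 kb before the 5′ end of Hnf4a, had 6 reads in the oil and 22 in the CCl4 library, a log2 ratio of 1.69 with an exact Clopper-Pearson interval from 0.34 to 3.28 that covers counting error only.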

How the results depend on the processing

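The scaling to the summed hepatocyte markers was chosen after the values had been seen. Changing the pseudocount or summing transcripts left each factor within its counting interval. Scaling to the median mRNA gave -1.89 for Hnf4a, -0.94 for Foxa2, -2.41 for Foxa3, -0.24 for Cebpa, -1.07 for Onecut1, -0.80 for Prox1 and -1.16 for Nr5a2. Leaving the 10 most abundant mRNAs out of the library size gave -1.41 for Hnf4a, -1.92 for Foxa3 and 0.25 for Cebpa. Scaling to the hepatocyte markers gave -0.70 for Hnf4a, 0.23 for Foxa2, -1.22 for Foxa3, 0.95 for Cebpa, 0.096 for Onecut1, 0.38 for Prox1 and 0.015 for Nr5a2. The number of factors lower by the threshold, 2 in the report, was 4 with the median scaling, 1 with the hepatocyte marker scaling, 1 at a log2 ratio of at least 2 and 5 at 0.5. For all mRNA transcripts, 2145 higher and 787 lower became 1114 and 1447 with the median scaling, and 9047 and 133 with the hepatocyte marker scaling. They became 2948 and 567 without the 10 most abundant mRNAs, 245 and 96 at a log2 ratio of at least 2, and 5625 and 1965 at 0.5. With at least 5 RPKM in both libraries, 797 were higher and 585 lower. A shift of every ratio, another threshold or fewer transcripts accounts for these by construction. Of the list medians, those of the relatives and the coregulators changed sign with the median scaling, to -0.16 and -0.080, and that of the other regulators with the hepatocyte marker scaling, to 0.33. The other list medians kept their sign under the alternatives run, though that of the Hnf4a targets was -0.040 with the hepatocyte marker scaling. Some list counts moved: targets of Cebpa lower by the threshold went from 7 to 4, targets of Onecut1 from 3 to 1 and relatives from 1 to 0 without the 10 most abundant mRNAs, and the other regulators from 4 to 10 with the median scaling and to 1 with the hepatocyte marker scaling. With the latter, lower targets went from 6 to 1 for Hnf4a, from 4 to 3 for the Foxa factors, from 7 to 2 for Cebpa, from 3 to 1 for Onecut1 and from 4 to 1 for Nr5a2. Of the values for the members and all mRNA transcripts, 44 stayed close to the reported value and 30 moved. Of the list values, 195 stayed close and 85 moved. No paired analysis was possible because each condition has 1 library. Genes listed at 0, such as Foxa1 in the CCl4 library, are limited by the 1 RPKM below which no value was listed.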

Other observations

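Coregulators with which the factors work were not lower as a group in the values as deposited. Of 8 coregulators 7 had a value in both libraries. As deposited none of the 7 had a log2 ratio below 0 or reached 1, against 31.2% and 14.4% of all mRNA transcripts. Their median of 0.24 became -0.080 after scaling to the median mRNA, where again none reached 1, against 7.5% of all. After scaling to the summed hepatocyte markers it became 1.11, where the median of all mRNAs was 1.17. On that scale 6 of the 7 reached 1, against 9047 of 14854 transcripts. The acetyltransferases Ep300 and Crebbp were at 3.53 and 6.15 RPKM (0.79) and at 5.11 and 7.42 RPKM (0.53) in the oil and CCl4 library. Hdac3, a deacetylase that acts with Prox1, was at 9.41 and 11.1 RPKM (0.24), and the corepressor Ncor1 had a log2 ratio of 0.23. Ppargc1a, the fasting-induced coactivator of Hnf4a, was listed at 0 in both libraries.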
